A study of Mus musculus with 17 samples.

Results

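Of 10 hippocampus RNA-seq libraries, the 3 with the most and the 3 with the least mRNA for cytosolic ribosomal proteins are described here: 6 of the 17 libraries of the series. They were chosen by a measured value, the ribosomal protein level, which is the median over 76 ribosomal protein genes of log2 CPM (read counts divided by the scaled size of their library) after each gene was centred on its mean over the 10 libraries. In the text, names such as young 2 give the maternal group and the replicate number. The high side is young 2, rapamycin 2 and aged 1, and the low side is rapamycin 3, young 3 and rapamycin 1. Each side therefore mixes treatment groups, though no aged library is on the low side. High and low are compared as a description and with no test, since every gene of these libraries comes from the counts that chose them.

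All libraries came from wild-type CD1 mice, an outbred stock. The tissue was the hippocampus of adult female offspring, 40 to 44 weeks old. Their mothers were young, aged, or aged and injected intraperitoneally with rapamycin at 2 mg/kg, starting at week 8 and lasting 40 weeks. Rapamycin inhibits the kinase mTOR. It was given to the mothers, and the offspring groups are called young (n = 4 libraries), aged (n = 3) and rapamycin (n = 3) after the mothers. Polyadenylated RNA was selected from 2 µg of total RNA per library. The labels do not say that the libraries of a group came from separate animals, so each p-value below reflects library-to-library spread alone, some of which may be technical.

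Ribosomal protein mRNAs are short, abundant and among the best known targets of mTOR, which controls their translation through a tract of C and T bases at the start of the mRNA (the 5′ terminal oligopyrimidine, or TOP, motif). Nuclear-encoded subunits of the respiratory chain are also mostly short mRNAs, whereas many ion channels and synaptic scaffold proteins have very long ones. In whole hippocampus the RNA of neurons is mixed with that of astrocytes, oligodendrocytes, microglia, vessels and the ependymal lining of the ventricle. In such bulk samples, fewer cells of a type and less RNA per cell cannot be told apart.

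The libraries held 16434398 to 20220617 reads assigned to genes and 14322 to 14741 genes with at least 10 counts. Hippocampal markers were present in all 10, with Prox1 (dentate granule cells) at 40.8 to 90.3 CPM, Wfs1 (CA1) at 73.9 to 252 CPM and Grik4 (CA3) at 32.3 to 85.9 CPM. Young 2 stood apart from the other 3 young libraries in glial, vascular and ependymal markers, and its weight in the differences is given with each of those lists. The first principal component of the 10 libraries carried 44.3% of the variance and placed the same 3 libraries at the low end. At the other end, aged 2 ranked ahead of aged 1.

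Short windows at the starts of some genes are shown because the TOP motif is the feature that ribosomal protein mRNAs are known to share. Each holds 30 bases, 15 before the annotated RefSeq start (GRCm38.p6) and 15 from it on, on the strand of the gene. Capitals mark the longest run of C and T. The first 6 genes have a run of at least 8 bases, and Rps7 and Tpt1 do not. A run can lie before the annotated start, as it does wholly in Rpl4, so the capitals do not by themselves mark a TOP motif.
Rpl7a (chr2:26910792-26910821, + strand): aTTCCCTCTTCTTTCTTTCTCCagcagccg
Rpl27a (chr7:109519180-109519209, + strand): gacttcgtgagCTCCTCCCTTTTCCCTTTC
Rpl15 (chr14:18270972-18271001, - strand): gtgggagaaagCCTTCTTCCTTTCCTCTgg
Rpl4 (chr9:64173372-64173401, + strand): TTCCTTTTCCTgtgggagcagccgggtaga
Rack1 (chr11:48800345-48800374, + strand): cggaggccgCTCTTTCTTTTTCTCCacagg
Eef1a1 (chr9:78481710-78481739, - strand): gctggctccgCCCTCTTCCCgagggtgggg
Rps7 (chr12:28635939-28635968, - strand): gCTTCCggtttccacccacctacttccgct
Tpt1 (chr14:75845241-75845270, + strand): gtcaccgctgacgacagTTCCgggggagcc

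The ribosomal protein level was 0.70 in young 2, 0.67 in rapamycin 2 and 0.51 in aged 1, and -0.44 in rapamycin 3, -0.55 in young 3 and -0.91 in rapamycin 1 (centred log2 units). Outside the rule, aged 2 (0.38) was nearest the high side and young 1 (-0.23) nearest the low side, with aged 3 at 0.01 and young 4 at -0.10. Ribosomal protein mRNAs made up 3.18%, 3.00% and 2.88% of the assigned reads on the high side and 1.52%, 1.43% and 1.12% on the low side. The sides were well apart, but the other 4 libraries filled the range between them, and aged 2 lay closer to aged 1 than rapamycin 2 did.

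**Figure D1:**
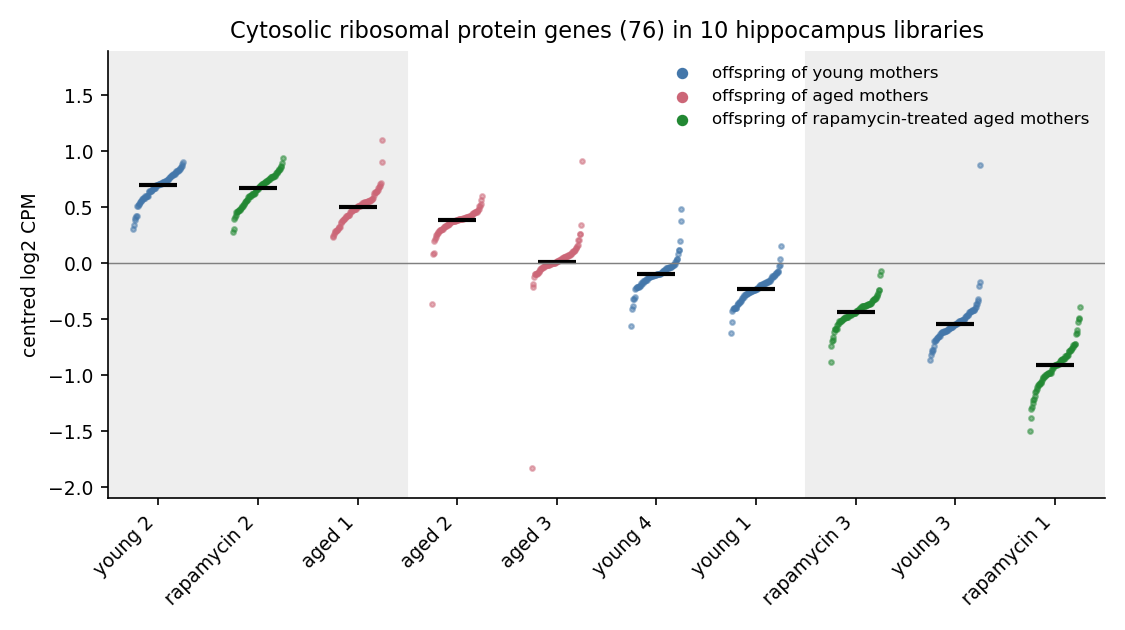
Centred log2 CPM of each of 76 ribosomal protein genes (points, sorted, computed without a prior count) in the 10 libraries, ordered by their ribosomal protein level (black bars, log2 CPM with a prior count of 2), with colours for the maternal group. Shaded columns are the 3 high libraries (0.51 to 0.70) and the 3 low ones (-0.91 to -0.44). Young and rapamycin libraries are spread along the order. The aged libraries lie together at ranks 3 to 5, and none is on the low side.

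Of 80 listed ribosomal protein genes, 76 passed the low-count filter. In 75 of them all 3 high libraries lay above all 3 low ones. The rule fixes this direction, and over all 14877 genes the same held for 25.6%, with the high libraries all below the low ones for 26%. The median high minus low difference was 1.23 log2 units, against -0.01 over all genes. The median was 1.27 over 32 small-subunit genes and 1.22 over 43 large-subunit genes.

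Rps14, a small-subunit protein, stood at 837 CPM in young 2, 842 in rapamycin 2 and 725 in aged 1, against 292 in rapamycin 3, 254 in young 3 and 217 in rapamycin 1. That is 801 ± 66.2 against 254 ± 37.3 CPM (SD, n = 3 each), a log2 difference of 1.66 and the largest in the ribosomal list. Rplp1, an acidic protein of the ribosomal stalk, stood at 1148, 1179 and 925 CPM on the high side and at 486, 422 and 317 CPM on the low side. Rpl4, a large-subunit protein, stood at 1036, 1099 and 995 CPM against 622, 570 and 502 CPM, a difference of 0.89. In these 3 genes the sides were far apart and the 4 other libraries lay between them. Only Rps27 overlapped, at under 1 CPM in young 3 (0.654), and near-identical copies of ribosomal protein genes make such low values uncertain.

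Other mRNAs with a known TOP motif followed at a smaller size, with 21 of 23 above and a median difference of 0.64. Eef1a1, the elongation factor that delivers aminoacyl-tRNA, stood at 4255, 4607 and 4125 CPM on the high side and 3043, 2933 and 2568 CPM on the low side. Tpt1, a growth-related TOP mRNA, stood at 889, 863 and 682 CPM against 366, 355 and 292 CPM. Hnrnpa1 went the other way at 0 to 0.945 CPM against 2.08 to 2.72 CPM, a level at which reads shared with near-identical copies matter. Of 26 mTOR pathway genes, 12 were above and 8 below, with a median of 0.15.

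Outside the ribosomal protein and other TOP lists, the start windows did not separate genes by their difference once length was held. A run of at least 8 C or T bases was found in 25 of 56 ribosomal protein genes with a window (44.6%), in 5 of 15 other TOP genes (33.3%) and in 15% of the 11367 kept genes with a window. Among genes of neither list with the shortest transcripts, the median difference was 0.56 with such a run (281 genes) and 0.55 without (1935 genes). Ribosomal protein and other TOP genes were left out of this comparison, so it does not bear on them. Rps7, shown above without a run, differed by 1.55, and Rpl7a, with the longest run shown, by 0.92. A match is only letters in a 30-base window around the annotated start.

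Subunits of the respiratory chain and of the mitochondrial ribosome were higher in the high libraries, while genes of mitochondrial biogenesis and dynamics were not. Of 77 nuclear-encoded respiratory chain genes, 73 were above and 0 below, with a median of 1.00. Medians by complex were 1.03 for complex I (36 genes), 0.68 for complex II (4), 1.05 for complex III (9), 1.09 for complex IV (11) and 0.89 for ATP synthase (15). Cox4i1, a subunit of cytochrome c oxidase, stood at 1023, 1087 and 712 CPM on the high side and 406, 410 and 378 CPM on the low side. The smallest difference of the list was that of Ndufs1, the largest subunit of complex I, at 144, 121 and 140 CPM against 134, 132 and 130 CPM.

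Mitochondrial ribosomal proteins (73 of 77 above, median 0.74) and proteasome subunits (27 of 31 above, median 0.55) went the same way. Enzymes of the TCA cycle and matrix had 12 of 20 above and 0 below, with a median of 0.31. Genes of mitochondrial biogenesis and dynamics had 3 above and 5 below of 14, with a median of -0.21 that turned to 0.06 with the trend on transcript length and GC (described below) removed. Among these, the fission GTPase Dnm1l was at 247, 202 and 254 CPM on the high side and 280, 279 and 300 CPM on the low side. With that trend removed the median was 0.31 for mitochondrial ribosomal proteins, 0.10 for TCA cycle genes and 0.36 for the other TOP mRNAs. Mitochondrially encoded mRNAs were not analysed here, so the mitochondrial groups are those of nuclear genes alone.

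Across all genes the difference followed transcript length. In 5 equal bins of the longest annotated transcript (GENCODE M21), the median difference went from 0.55 in the shortest (up to 1812 bases) through 0.20, -0.01 and -0.18 to -0.49 in the longest (5166 bases and more). In the shortest bin 60.7% of genes were above and 5.91% below. In the longest bin 3.81% were above and 60.1% below. Across 14437 genes with a length, the difference and log10 length had a Pearson r of -0.519 and a Spearman rho of -0.576, as a description, since genes share the same 6 libraries. The same order of bins held within each range of GC content, while bins of GC alone ran only from -0.09 to 0.13.

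**Figure D2:**
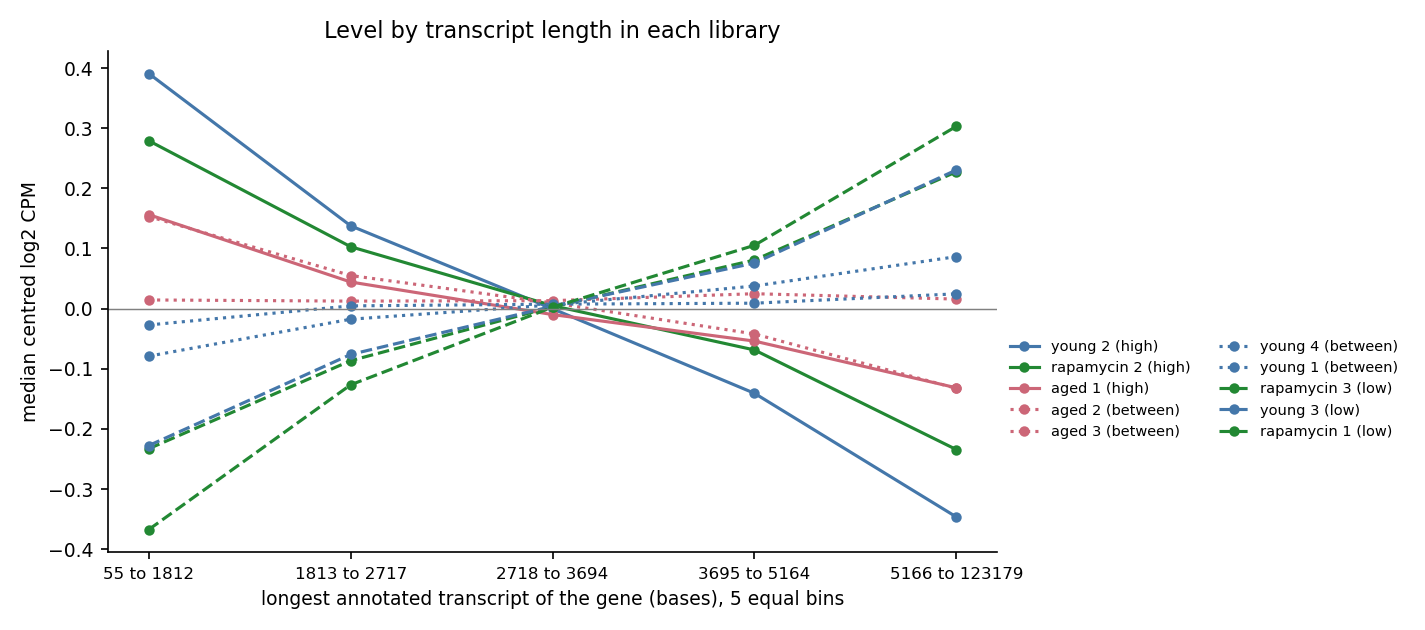
Median centred log2 CPM (vertical) of genes in 5 equal bins of transcript length (horizontal, bases) in each of the 10 libraries, with solid lines for high, dashed for low and dotted for the other libraries. The lines fan out from young 2 (0.39 in the shortest bin and -0.35 in the longest) to rapamycin 1 (-0.37 and 0.30) and cross in the middle bin.

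In the shortest bin the fan was ordered like the ribosomal protein level, library by library, except that rapamycin 3 and young 3 (-0.23 each) swapped places. Ribosomal protein genes differed more than their length class: in the shortest bin their median was 1.25 (66 genes) against 0.54 for the other 2825 genes. The rule chose the libraries by these same genes, which favours a larger difference for them, with or without the length trend. After a smooth trend on length and GC was removed in each library, the ribosomal median was 0.65, that of the respiratory chain 0.44 and that of the proteasome 0.17. Whether fragment size, RNA integrity or the cells themselves moved with length was not tested, because no integrity value or fragment size was at hand.

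**Figure D3:**
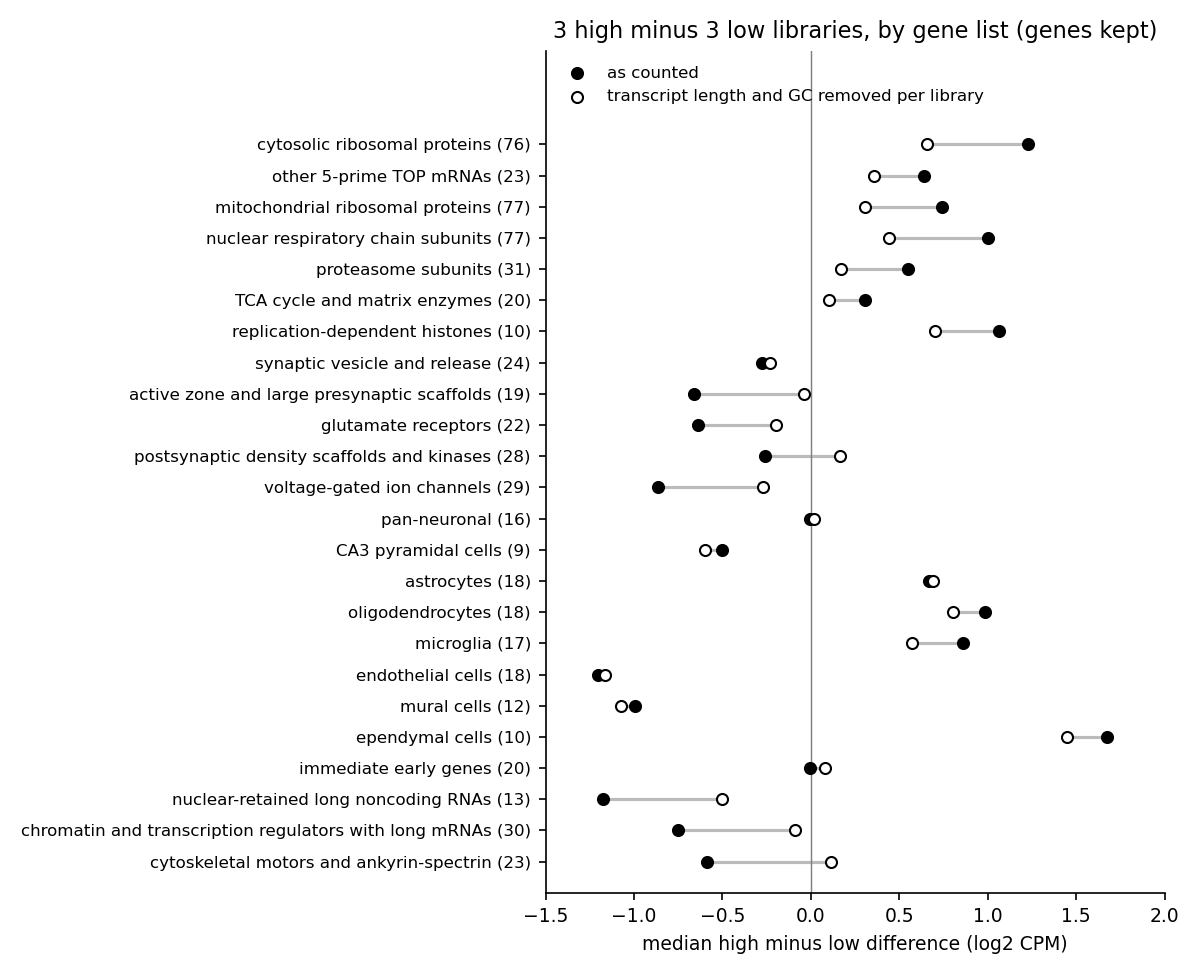
Median high minus low difference (log2 CPM, horizontal) for 24 gene lists (vertical, with the number of genes kept), as counted (filled) and after a smooth trend on transcript length and GC was removed in each library (open). Respiratory chain, scaffold and ion channel lists moved toward 0, from 1.00 to 0.44 and from -0.66 to -0.04 in 2 of them, while endothelial (-1.20 to -1.17) and astrocyte lists (0.67 to 0.69) stayed in place.

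Long synaptic mRNAs were lower in the high libraries. Of 19 genes for the active zone, the site of vesicle release, and other large presynaptic scaffolds, 0 were above and 14 below, with a median of -0.66. Bsn, which encodes the giant scaffold bassoon, was at 230, 314 and 293 CPM on the high side and 678, 619 and 719 CPM on the low side. Voltage-gated ion channels had 23 of 29 below and 1 above, with a median of -0.87. Cacna1c, the pore of an L-type calcium channel, was at 38.7, 43.3 and 52.8 CPM against 136, 124 and 154 CPM.

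Glutamate receptors had 13 of 22 below and 0 above, with a median of -0.64. Grin2b, an NMDA receptor subunit with a transcript of 24060 bases, was at 5.38, 22.2 and 10.3 CPM on the high side and 35.9, 34.8 and 56.6 CPM on the low side. Gria1, an AMPA receptor subunit, was at 591, 648 and 873 CPM against 1027, 1190 and 1041 CPM. Postsynaptic density genes had 12 of 28 below and 2 above, with a median of -0.26 and 23 of 28 differences negative. Nrgn, a short calmodulin-binding postsynaptic mRNA, was among those above, at 2163, 2314 and 1858 CPM against 1250, 1255 and 1124 CPM.

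With the length trend removed, the active zone median was -0.04, the ion channel median -0.27, the glutamate receptor median -0.20, and the postsynaptic median turned sign to 0.16. Synaptic vesicle genes, which are shorter, changed less, from -0.27 to -0.23 (11 of 24 below and 5 above). Slc17a7, the vesicular glutamate transporter, was at 1322, 1581 and 1301 CPM against 1830, 1699 and 1695 CPM, and Snap25, a release SNARE, overlapped at 1997 to 2468 against 2156 to 2258 CPM. Pan-neuronal genes were balanced, with 3 above and 3 below of 16 and a median of 0.00.

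Other long mRNAs behaved alike. Of 30 long chromatin and transcription regulators, 28 were below and 0 above (median -0.75, or -0.09 with the length trend removed). Of 23 cytoskeletal motor, ankyrin and spectrin genes, 18 were below and 1 above, and here the median turned from -0.59 to 0.11. Kif5a, a neuronal kinesin, did not follow and was highest in rapamycin 2, at 5905 CPM against 1975 to 3380 CPM in the other libraries.

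Long noncoding RNAs listed as nuclear were lower in the high libraries, with 8 of 13 below and 2 above (median -1.18, mean -0.83, and median -0.50 with the length trend removed). Where each of them lies in the cell was not measured here. Meg3, an imprinted noncoding RNA, was at 367, 275 and 456 CPM on the high side and 1180, 1408 and 1721 CPM on the low side, 3.96-fold more on the low side. Miat was at 173, 99.6 and 209 CPM against 589, 605 and 619 CPM, and Xist, which coats the inactive X chromosome in these females, at 377, 250 and 557 CPM against 1005, 976 and 1070 CPM. Gas5, a host of small nucleolar RNAs, and Pantr1 were above, and Neat1, the paraspeckle RNA, overlapped at 61.6 to 131 against 58.5 to 117 CPM.

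Replication-dependent histone mRNAs, most of which end in a stem-loop, had 9 of 10 kept genes above, a median of 1.06 and 0.70 with the length trend removed. Hist1h2bc was at 32.9, 51.7 and 21.4 CPM against 6.18, 19.7 and 15.5 CPM. The ribosomal RNA precursor Rn45s, the 1 gene kept of a list of 10 small noncoding and ribosomal RNAs, was at 2758, 5066 and 2646 CPM against 1206, 1405 and 1094 CPM, with rapamycin 2 well above the rest.

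Reads that were not assigned to a gene differed between the sides as well. Reads outside annotated genes came to 13.1%, 12.4% and 14.8% of the assigned plus unassigned reads on the high side and 16.0%, 15.1% and 15.4% on the low side, a difference of -2.07 percentage points. Reads with several positions came to 7.22%, 7.05% and 8.01% against 6.30%, 5.09% and 5.10%. Reads that hit more than 1 gene came to 1.92%, 1.85% and 1.76% against 1.66%, 1.70% and 1.68%. Each share separated the sides, but the 4 other libraries, at 11.6% to 13.9% outside genes, were not between them in the first share. Whether these shares bear on the gene differences was not tested.

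Markers of oligodendrocytes, astrocytes and microglia were higher in the high libraries, while those of oligodendrocyte precursors were balanced, with 3 above and 3 below of 10 and a median of -0.09 that turned to 0.21 with the length trend removed. Oligodendrocyte genes had 14 of 18 above and 0 below, with a median of 0.99 and 0.80 with the length trend removed. Mbp, a main myelin protein, was at 7066, 6896 and 5255 CPM on the high side and 2913, 2400 and 1605 CPM on the low side. Aged 2 was as high (6976 CPM), while aged 3, young 4 and young 1 were at 2693, 2522 and 1953 CPM, so Mbp split the 10 libraries into 4 high and 6 low. Without young 2 the oligodendrocyte median was 0.96. Mag, another myelin gene, overlapped at 102 to 168 against 68.7 to 109 CPM.

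Astrocyte genes had 11 of 18 above and 1 below, with a median of 0.67, and 0.63 without young 2. Gfap, the astrocyte intermediate filament, was at 898, 909 and 709 CPM against 267, 383 and 178 CPM, but young 1, on neither side, was at 899 CPM. Apoe, the main brain apolipoprotein, was at 4976, 4036 and 3418 CPM against 1918, 1682 and 1981 CPM. The glutamate transporters did not follow as counted: Slc1a2 was at 2841 to 3068 against 2504 to 2914 CPM and Slc1a3 at 653 to 695 against 622 to 710 CPM. With the length trend removed, the astrocyte median was 0.69 and all 18 differences were positive. Slc1a2, with a transcript of 11595 bases, then differed by 0.89.

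Microglial genes had 10 of 17 above and 0 below, with a median of 0.86, 0.57 with the length trend removed and 0.73 without young 2. C1qb, a chain of complement C1q with a transcript of 1088 bases, was at 104, 53.8 and 44.3 CPM against 15.3, 25.3 and 18.7 CPM. Tyrobp, the short signalling adaptor DAP12, was at 30.9, 25.1 and 18.9 CPM against 8.10, 10.4 and 7.86 CPM. Longer microglial mRNAs overlapped: Csf1r (4701 bases) was at 126, 127 and 105 CPM against 119, 101 and 113 CPM, and Itgam (4682 bases) at 25.5 to 35.1 against 27.2 to 31.1 CPM. The list was thus divided, with 7 of 17 genes overlapping.

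Markers of vessels went the opposite way. Endothelial genes had 16 of 18 below and 0 above, with a median of -1.20, -1.17 with the length trend removed and -1.13 without young 2. Flt1, a VEGF receptor, was at 10.5, 21.2 and 19.4 CPM on the high side and 54.4, 48.4 and 66.7 CPM on the low side. Slco1a4, an organic anion transporter of the blood-brain barrier (chromosome 6, 141805440 to 141856199 of GRCm38, protein-coding), was at 6.62, 11.9 and 10.9 CPM against 52.3, 45.5 and 40.6 CPM. Cldn5, a short tight junction mRNA, also differed, at 15.4, 12.3 and 15.2 CPM against 32.6, 26.4 and 31.2 CPM.

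Mural cell genes, for pericytes and smooth muscle, had 10 of 12 below and 0 above, with a median of -0.99, and -0.94 without young 2. Myh11, smooth muscle myosin, was at 1.42, 1.06 and 2.61 CPM against 7.93, 7.69 and 9.84 CPM. Among the 4 libraries outside the rule, aged 2 and aged 3, with the higher ribosomal protein levels, were also the lower ones in the endothelial list, and in the mural list at -0.41 and -0.54 against 0.46 in young 4 and -0.03 in young 1. All 3 aged libraries lay on the lower side of the endothelial list, at -0.31, -0.54 and -0.35 for aged 1, 2 and 3, and young 1 and young 4 on the upper side, at 0.41 and 0.46. Young 2, at -0.86, lay lowest of the 10.

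Ependymal genes, markers of the ciliated lining of the ventricle, had 8 of 10 above and 0 below, with a median of 1.68, and 1.46 without young 2. Foxj1, the regulator of motile cilia, was at 21.0, 7.84 and 11.6 CPM against 5.48, 5.83 and 2.89 CPM. The choroid plexus gene Ttr overlapped, at 59.3, 12.9 and 28.8 CPM against 16.7, 0.302 and 0.710 CPM. These levels were low and uneven from library to library. Ptgds, a prostaglandin synthase of the meninges and oligodendrocytes (chromosome 2, 25466709 to 25470046, protein-coding), had the largest difference among genes named for being higher, at 847, 506 and 480 CPM against 159, 181 and 80.4 CPM.

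Differences without overlap of at least 1.5-fold numbered 1983 genes above and 2067 below. Of the 12 named for the largest positive differences, 4 were ribosomal protein genes (Rps14, Rps27a, Rpl39 and Rps7) and 6 were glial or ventricular genes described above or related to them (Ptgds, S100a1, C1qb, Gfap, Apod and Tppp3). The other 2 were Acot13, a mitochondrial thioesterase, and Lars2, the mitochondrial leucyl-tRNA synthetase. Lars2 was at 343, 694 and 412 CPM on the high side and 144, 184 and 118 CPM on the low side, with a long transcript of 3894 bases. Unlike most of the others it differed more with the length trend removed (1.81) than as counted (1.65). It differed by 0.90 within young and 2.41 within rapamycin, and the ribosomal RNA precursor Rn45s by 0.97 and 2.14. Whether Lars2 and Rn45s share reads was not tested, so the level of Lars2 is uncertain.

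Of the 12 named for the largest negative differences, Meg3 and Miat are noncoding, Grin2b is synaptic and Slco1a4 endothelial. Lnpep, a placental leucine aminopeptidase, was at 7.98, 25.1 and 10.7 CPM against 56.3, 48.7 and 72.8 CPM. Vps13c, a lipid transfer protein, was at 28.7, 34.2 and 39.3 CPM against 118, 122 and 134 CPM. In both genes, which have long transcripts, young 2 was lowest of the 6. The pseudogene Tmem181b-ps had the largest negative difference, at 67.6, 50.8 and 5.23 CPM against 228, 226 and 268 CPM. It was at 3.82 CPM in young 1 and 103 CPM in aged 2, and reads shared with near-identical copies make its level uncertain. Tmem178b, Zbed6, Col19a1 and Rreb1 were also among the 12, with differences from -2.27 to -1.88.

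Of the hippocampal neuron types, CA3 markers were mostly lower, with 5 of 9 below and 0 above (median -0.50, and -0.60 with the length trend removed). However, 3 of the 9 differences were positive. Grik4, a kainate receptor subunit of CA3, was at 41.6, 45 and 32.3 CPM against 85.9, 75.7 and 76.4 CPM. Nnat went the other way with overlap, at 537, 652 and 333 CPM against 262, 285 and 388 CPM, a difference of 0.67. Dentate (1 above and 4 below of 12), CA1 (1 and 0 of 9) and CA2 markers (1 and 0 of 8) mostly overlapped. Interneuron markers had 2 above and 5 below of 17, with a median of -0.02. The part that cell makeup had in the other gene groups was not tested.

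**Figure D4:**
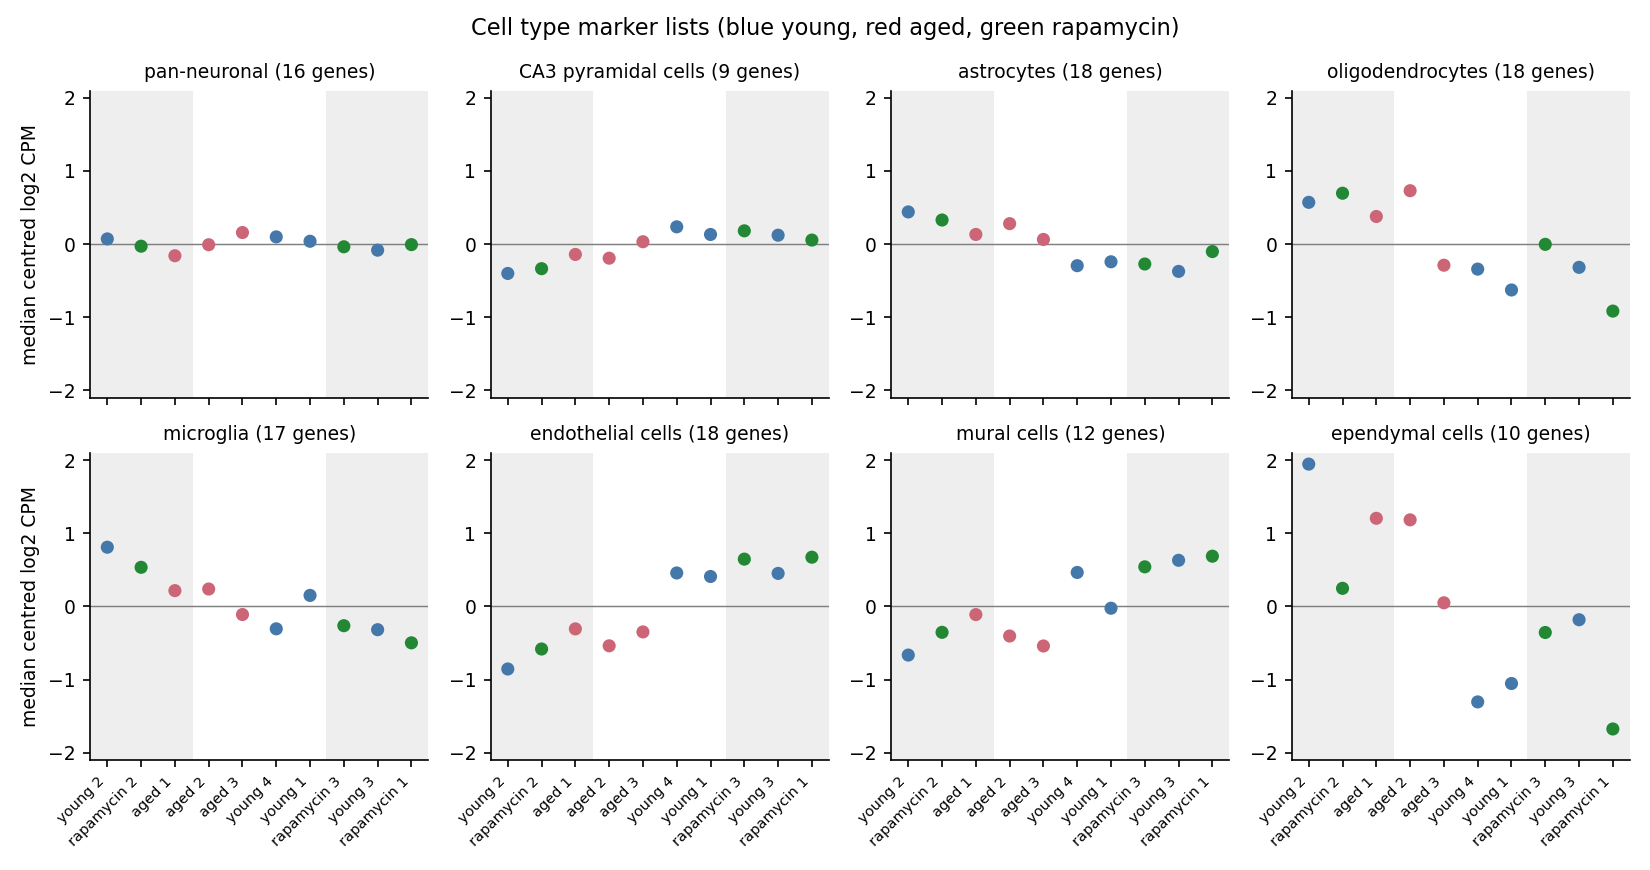
Median centred log2 CPM (vertical) of 8 cell type marker lists in the 10 libraries in the order of their ribosomal protein level, coloured by maternal group, with the high and low libraries shaded. Pan-neuronal markers stay near 0, astrocyte, oligodendrocyte, microglial and ependymal markers are higher on the left, and endothelial markers divide the 10 libraries into 5 low (-0.86 to -0.31) and 5 high (0.41 to 0.67).

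The same pattern was present inside 2 maternal groups. Within young, young 2 minus young 3 gave a ribosomal median of 1.22, a respiratory chain median of 1.15, an active zone median of -0.79 and an endothelial median of -1.20. Within rapamycin, rapamycin 2 minus the mean of rapamycin 1 and rapamycin 3 gave 1.36, 1.08, -0.70 and -1.39. These contrasts share no library, and across 14877 genes they had a Pearson r of 0.667 and a Spearman rho of 0.732, with 79.0% of genes of the same sign, as a description of libraries that were chosen for opposite ends. They were less alike for histones, with 0.72 within young and 1.73 within rapamycin.

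The ribosomal protein level itself was compared between the maternal groups, since the labels and not the level define these. Its mean was -0.04 ± 0.53 in young (SD, n = 4), 0.30 ± 0.26 in aged (n = 3) and -0.23 ± 0.81 in rapamycin (n = 3), and 15.8% of its variance lay between the groups. Aged minus young was 0.34 (exact two-sided permutation test, p = 0.343, smallest p for these values 0.0286, adjusted p = 0.6 over the 3 comparisons). Rapamycin minus aged was -0.53 (exact permutation p = 0.4, adjusted p = 0.6), where 3 against 3 cannot go below 0.1. Rapamycin minus young was -0.18 (exact permutation p = 0.743), and it changed sign without rapamycin 1 (0.16) or without young 2 (0.07). None of the 3 differences passed the permutation test.

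Gene by gene, edgeR's quasi-likelihood test with Benjamini-Hochberg adjustment called 7 of 14877 genes between aged and young (0.0471%), 0 between rapamycin and aged (0%) and 8 between rapamycin and young (0.0538%), all of them higher in the first group. In the same order, 522, 673 and 540 genes had an unadjusted edgeR p under 0.05, each fewer than chance would mark on average among 14877. For rapamycin against aged, where edgeR called 0, DESeq2 called 13. Of 76 ribosomal protein genes, 0 were called in each of the 3 comparisons. The 7 aged and 7 of the 8 rapamycin calls were members of a list of 20 immediate early genes, which neurons switch on within minutes of activity. The other rapamycin call was Cyr61, a matricellular growth regulator that was not put on that list. Both comparisons share the young libraries, and the counts were small enough to move with 1 library: without young 1 they were 0 and 2, and without young 2 they were 15 and 7. With a replicate block, rapamycin against young gave 4 calls in place of 8.

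Of the 20 immediate early genes, 0 were above and 0 below, with a median of -0.01. Each side holds a young and a rapamycin library, so genes that separate these groups overlap by construction. Fos, a transcription factor of this class, was at 7.24 CPM in young 2 and 59.4 in rapamycin 2 on the high side, and at 4.53 in young 3 and 66.1 in rapamycin 1 on the low side. All 4 young libraries were at 4.53 to 7.24 CPM, and the 3 aged and 3 rapamycin libraries were at 27.4 to 66.1 CPM. Its log2 fold change was 2.79 ± 0.27 (SE) for aged against young (edgeR adjusted p = 0.00576) and 3.23 ± 0.28 for rapamycin against young (edgeR adjusted p = 0.00154). With the ribosomal protein level as a covariate these were 2.81 ± 0.27 (edgeR adjusted p = 0.00374) and 3.22 ± 0.27 (edgeR adjusted p = 0.000876). Fosb, its relative, was at 9.39 to 10.1 CPM in young and 25.2 to 53.2 CPM in the other libraries.

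**Figure D5:**
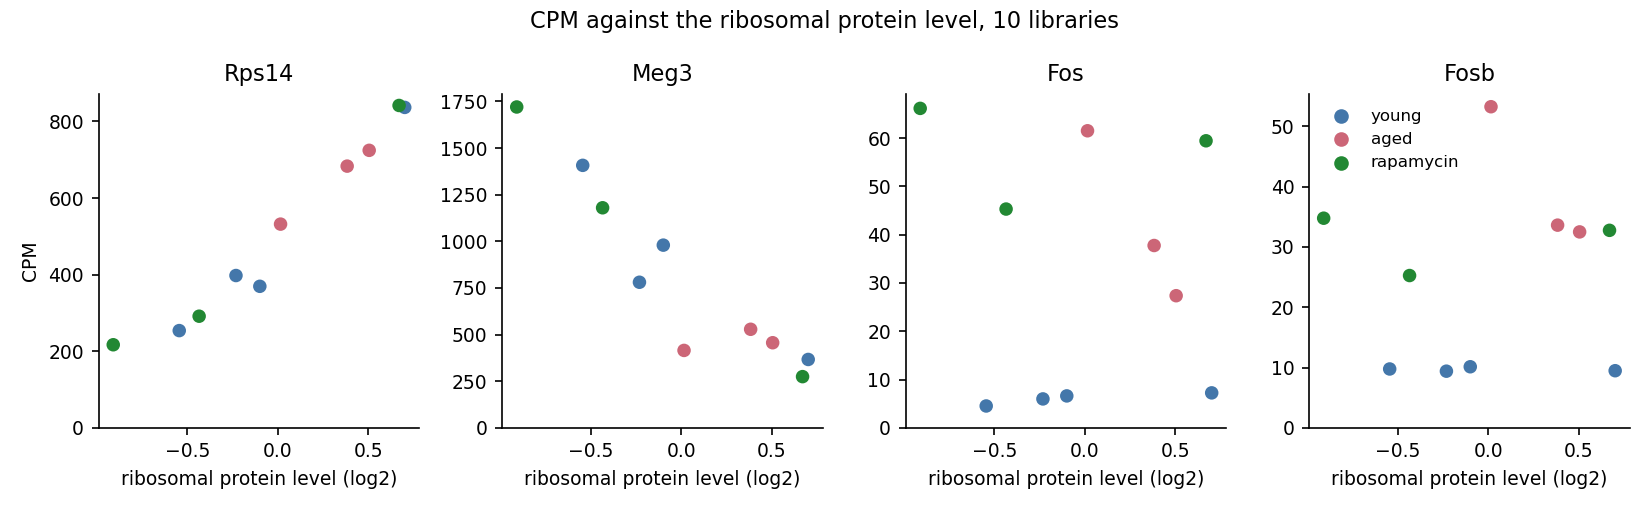
CPM (vertical, from 0) of Rps14, Meg3, Fos and Fosb against the ribosomal protein level (horizontal, log2 units) in the 10 libraries, coloured by maternal group. Rps14 runs from 217 to 842 CPM and Meg3 from 1721 down to 275 CPM along the level, while Fos and Fosb are low in all 4 young libraries (Fos at 4.53 to 7.24 CPM) at every level.

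With the ribosomal protein level as a covariate, the biological coefficient of variation, the spread between libraries beyond counting, went from 23.5% to 14.6%. The fit then called 12 genes for aged against young, which held all 7, and 16 for rapamycin against young, which held all 8. With a replicate block beside the covariate these counts were 1 and 6. For rapamycin against aged it called 0, with 859 at an unadjusted p under 0.05. The covariate was taken from the same libraries, with 6 residual degrees of freedom left of 7.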

How the data were processed

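Each file holds the counts of reads per gene of 1 library, as deposited by the authors, with no normalization. Per the submitters' processing notes, STAR and HTSeq were used with mm10. Their versions, the annotation and the strand setting were not given in the sources used here, and values of overlapping or antisense genes are therefore uncertain. Summary rows that name no gene stayed out of library sizes; their shares are in the report. Oocyte libraries were not used.

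Genes were kept with filterByExpr (14877 of 24491), scaled by TMM and given as log2 CPM with a prior count of 2. Maternal groups were compared with edgeR's quasi-likelihood test over all 10 libraries and a threshold of 0.05. A floor of 3 counts was 0.151 to 0.187 CPM; reads are not independent molecules, so it covers counting error only. Length and GC came from the longest GENCODE M21 transcript (14437 genes, 97.0%), on GRCm38, the assembly of mm10; the trend was a loess curve of span 0.3 per library. Start windows came from RefSeq. A gene is above or below where the 3 high libraries do not overlap the 3 low ones. Named genes are the 12 with the largest difference in each direction among genes without overlap and with a mean log2 CPM of 4 or more, and the 3 most abundant members per list; others, such as Ndufs1, Cacna1c, Cldn5 and Slc1a3, were chosen after their values were seen. A few genes that meet this rule are left out of the text. Members and lists were chosen with earlier results of these data known. No pair of libraries agreed within counting noise (chi-square per degree of freedom at least 9.56). Same-numbered young and rapamycin libraries deviated together (r = 0.18, 0.64 and 0.32), which is over 0.1 in all 3 pairs. Pairs with aged libraries ran from -0.18 to 0.21. Young 2 and rapamycin 2 are both on the high side, and young 3 and rapamycin 3 both on the low side. Libraries with different numbers were not compared in this way, so a link to the number was not tested. No label says what a number stands for. The code was tested on simulated data. Alternatives were other scalings, filters, tests and covariates and leaving out each library. Versions were R 4.3.3, edgeR 4.0.16, DESeq2 1.42.0, Python 3.11.15 and matplotlib 3.10.9.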

Additional observations from a re-analysis of the deposited data

Results flagged for a closer look

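The young group, with 4 libraries, was the only one large enough for a check of single libraries. In 17 of 209 lists, shares and named genes checked there, 1 library lay farther from the other 3 than Dixon's 95% limit. Chance marks about 1 in 20 such groups, and many of these genes are related to each other.

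Young 2 was the marked library in 14 of the 17. It is the only young library on the high side, and some checked genes were named for their high minus low difference. Its marks therefore follow in part from the choice of libraries and genes. Its astrocyte list level was 0.44 against -0.37 to -0.24 in the others, with Apoe at 4976 against 1682 to 2093 CPM and Glul, which makes glutamine, at 2872 against 1141 to 1354 CPM. Oligodendrocyte genes were also apart, with Mbp at 7066 against 1953 to 2522 CPM, Mobp at 658 against 190 to 213 CPM and Olig1 at 248 against 111 to 129 CPM. Its endothelial list level was -0.86 against 0.41 to 0.46. Among ventricular genes, Ttr was at 59.3 against 0.302 to 2.29 CPM, Ccdc153 at 13.6 against 0.362 to 1.36 CPM and Tppp3 at 89.8 against 18.3 to 24.4 CPM. The metallothionein Mt2 was at 241 against 71.1 to 86.3 CPM and the mitochondrial ribosomal gene Mrps26 at 85.8 against 51.1 to 56.0 CPM. The neuronal genes Gria1 and Wfs1 were lower there, at 591 against 1088 to 1190 CPM and at 73.9 against 195 to 200.4 CPM. The pan-neuronal list level was not apart, at 0.07 against -0.08 to 0.10. Other neuronal and synaptic lists were not marked either, but several lay lower in young 2 than in the other young libraries. The active zone list was at -0.47 against 0.18 to 0.33, ion channels at -0.56 against 0.17 to 0.42 and CA3 markers at -0.40 against 0.12 to 0.24. The interneuron list lay higher there, at 0.18 against 0.05 to 0.07.

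In young 1, Pdgfra was at 68.6 against 53.6 to 55.0 CPM and Igf2 at 50.2 against 18 to 21.3 CPM. In young 3, Rora was at 42.5 against 30.2 to 32.2 CPM.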

How the results depend on the processing

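The rule took the same 3 high and 3 low libraries under 2 other scalings, without scaling factors, under both other filters and with the mean in place of the median. Of 1.5-fold or larger differences without overlap there were 4050, with 3844 to 5036 when 1 of the 6 libraries was left out, 2666 at a mean of 10 CPM and 2163 with length and GC removed. With length and GC removed the medians were 0.65 for ribosomal proteins, 0.44 for the respiratory chain, -0.039 for the active zone, -0.50 for nuclear noncoding RNAs and 0.11 for motors and ankyrins, where the sign turned. The active zone median was -0.79 within young and -0.78 to -0.59 with 1 library left out, and the mean for nuclear noncoding RNAs was -0.83. DESeq2 called 52, 13 and 36 genes for aged against young, rapamycin against aged and rapamycin against young, where edgeR called 7, 0 and 8. With only the 2 groups compared the counts were 2, 2 and 5, a filter at 10 CPM gave 5 for the last, and the ribosomal covariate gave 12, 0 and 16. Leaving out each library gave 0 to 15, 0 to 1 and 2 to 10. Rapamycin minus young in the ribosomal protein level ran from -0.63 to 0.16 with 1 library left out. The medians for postsynaptic density genes (-0.26 to 0.16), mitochondrial biogenesis (-0.21 to 0.06) and oligodendrocyte precursors (-0.09 to 0.21) also turned sign with length and GC removed. With a replicate block the counts were 9, 0 and 4, and with block and covariate 1, 0 and 6; the ribosomal protein level kept its direction under the block in all 3 comparisons. The causes of these moves were not tested, beyond the fewer genes or libraries in those settings.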
